A study of Mus musculus with 4 samples.

Results

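Circadian clock genes were examined in cells sorted from the left ventricle of control mice and of mice with induced HFpEF, a heart failure in which the ejection fraction is preserved. The 10 genes were Per1, Per2, Per3, Nr1d1, Nr1d2, Dbp, Ciart, Arntl, Clock and Cry1, chosen by gene symbol among 31253 genes in the deposited counts, and all 10 were found. Control mice (NC, labelled Chow diet) ate chow in which fat supplied 10% of the calories, and HFpEF mice (labelled HFD plus L-NAME) ate one with 60% together with the nitric oxide synthase inhibitor L-NAME at 0.5 mg/mL. By the study's methods, the sorted red cells came from mice with the Cdh5-CreER transgene, in which the endothelial Cdh5 promoter drives a tamoxifen-inducible Cre, a Cre-dependent red fluorescent reporter, and floxed Scarb1 alleles, and tamoxifen was given from 7 weeks of age. The study's design names 4 groups, each diet with 1 or with both Scarb1 alleles floxed, but the labels assign no genotype to a library, and the numbers of mice and the hours at which hearts were collected are not given in the sources used here. The animals were kept under a 12-h light and dark cycle.

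The 4 libraries, 2 per diet, are called NC 1, NC 2, HFpEF 1 and HFpEF 2. With 4 groups by diet and genotype and 4 libraries, 2 libraries that share a diet may not share a genotype, and would then not be plain replicates. The p-values measure the spread between these libraries, in which genotype, animal and library cannot be told apart. Of 41843 deposited cells, 40154 had over 200 genes and under 20% mitochondrial unique molecular identifiers (UMIs), with a median UMI number per cell of 3754 (NC 1), 4127 (NC 2), 1736.5 (HFpEF 1) and 1619 (HFpEF 2). The endothelial label was checked with Cdh5, which had a UMI in 77.6% to 91.8% of the kept cells of a library, and Pecam1, with 63.6% to 86.2%. Cells were assigned by marker genes to capillary ECs (29655 cells), artery ECs (5437), vein ECs (989) and mural cells (610), and UMIs of each gene were summed per library and class. In such sums, fewer cells that express a gene and less of its RNA per cell cannot be told apart. Of the artery ECs 47.8% and of the vein ECs 51.8% carried exactly 2 markers of their class, the least that admitted them, and 40.4% of the capillary ECs carried 1 marker of another EC class. By library, the last share was 52.1% (NC 1), 51.0% (NC 2), 30.6% (HFpEF 1) and 36.3% (HFpEF 2). Artery ECs made up 18.7%, 17.5%, 8.67% and 11.8% of the kept cells in the same order. The part of these differences in the clock genes' values was not tested. Of 8 capillary markers, artery ECs had a median of 5 to 6 per library and vein ECs of 5 to 7, beside 6 to 7 in capillary ECs. The classes are thus not free of capillary transcripts. Mural cells had a median of 7 to 9 of 12 mural markers, of 3 of 8 capillary markers and of 2 of 8 pan-endothelial markers per library. Any 2 libraries shared at most 42 cell barcodes, 0.728% of the smaller one. Scarb1 stood at 113.7 and 49.6 UMIs per 1000000 UMIs of the class (CPM) in capillary ECs of NC 1 and NC 2. It stood at 114.5 and 53.0 CPM in HFpEF 1 and HFpEF 2, so that library 2 was the lower in each diet. The deleted exon lies outside the 3′ ends that were counted. Even so, the paper reports a lower level of this transcript in capillary ECs of mice with both alleles floxed than in the other mice, on each diet. Scarb1 was not used here to assign a genotype, which no label gives.

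The molecular clock is a feedback loop that most cells run. CLOCK and BMAL1, the product of Arntl, bind E-boxes and activate Per, Cry, Nr1d1, Nr1d2, Dbp and Ciart, and the PER, CRY and CIART proteins repress CLOCK and BMAL1 in turn. The nuclear receptors encoded by Nr1d1 and Nr1d2 (REV-ERBα and REV-ERBβ) repress Arntl through ROR elements, and DBP activates genes that carry D-boxes. In peripheral tissues, transcripts of Dbp and Nr1d1 are known to peak at a different time of day from Arntl, while Clock varies little, and clock genes of the vessel wall are linked to daily rhythms of vascular tone and clotting.

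Promoters of 5 of the genes are shown for the motifs through which the loop is wired, as 300 bases from 250 before to 50 after the RefSeq start of transcription in build GRCm38.p6, with motifs in capitals. Both strands were searched for the E-box CACGTG, the D-box TTATGTAA or TTACGTAA and the ROR element core AGGTCA by their letters, which lie in 7.15%, 1.06% and 16.3% of 32851 such windows of all genes. The windows matched 9 of the 10 genes. The Ciart window (chr3:95882179-95882478, minus strand) held 3 E-boxes, the Cry1 window (chr10:85185005-85185304, minus strand) held 1, the Per1 window (chr11:69098699-69098998, plus strand) held 1 E-box and 1 ROR core, the Per3 window (chr4:151044616-151044915, minus strand) held 2 D-boxes, and 1 of the Arntl windows (chr7:113207261-113207560, plus strand) held 1 ROR core just past the start. A ROR core also lay in the Nr1d2 window and in 1 of the 3 Clock windows, so that 4 of the 9 matched genes had one. Counted by window, as the 16.3% is, 4 of the 13 windows of these genes had one. The other Clock windows, a further window each of Per1 and Arntl, and the windows of Dbp and Nr1d1 held none of these letters.
Ciart: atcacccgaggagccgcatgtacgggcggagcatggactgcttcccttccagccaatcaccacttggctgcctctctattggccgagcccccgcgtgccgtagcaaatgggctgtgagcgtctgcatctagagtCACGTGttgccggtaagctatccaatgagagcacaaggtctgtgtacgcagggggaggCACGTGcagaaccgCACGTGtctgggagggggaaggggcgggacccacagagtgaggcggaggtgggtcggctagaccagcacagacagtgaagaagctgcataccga
Cry1: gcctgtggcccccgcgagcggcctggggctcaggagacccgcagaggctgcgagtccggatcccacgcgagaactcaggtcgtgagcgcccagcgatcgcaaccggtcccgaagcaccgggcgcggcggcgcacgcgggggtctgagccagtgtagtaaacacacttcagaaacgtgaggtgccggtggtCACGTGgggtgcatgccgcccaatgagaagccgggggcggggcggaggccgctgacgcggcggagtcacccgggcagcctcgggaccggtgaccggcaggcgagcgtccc
Per1: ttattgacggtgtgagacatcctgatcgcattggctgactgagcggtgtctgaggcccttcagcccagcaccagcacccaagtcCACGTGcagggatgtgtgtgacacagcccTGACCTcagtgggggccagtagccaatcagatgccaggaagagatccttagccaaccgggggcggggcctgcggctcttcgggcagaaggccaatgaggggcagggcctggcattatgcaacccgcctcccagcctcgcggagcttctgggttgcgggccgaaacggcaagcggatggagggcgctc
Per3: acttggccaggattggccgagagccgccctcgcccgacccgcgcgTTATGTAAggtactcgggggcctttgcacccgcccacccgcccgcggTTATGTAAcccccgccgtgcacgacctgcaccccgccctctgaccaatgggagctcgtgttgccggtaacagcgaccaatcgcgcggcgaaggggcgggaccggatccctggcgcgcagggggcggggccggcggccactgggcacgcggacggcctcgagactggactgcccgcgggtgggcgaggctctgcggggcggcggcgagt
Arntl: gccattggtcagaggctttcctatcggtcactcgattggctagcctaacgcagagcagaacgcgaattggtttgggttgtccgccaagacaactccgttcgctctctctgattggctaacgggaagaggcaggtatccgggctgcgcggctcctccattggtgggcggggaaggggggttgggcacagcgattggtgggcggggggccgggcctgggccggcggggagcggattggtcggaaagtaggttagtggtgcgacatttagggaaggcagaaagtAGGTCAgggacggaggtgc

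In capillary ECs, HFpEF 1 stood at an extreme for most of the 10 clock genes. The levels of 7 of the 10 overlapped between the diets, and those of Ciart, Cry1 and Arntl did not. The share of all genes without such overlap was not counted, so this is no result about the 10 as a list. Among the 4 libraries HFpEF 1 had the highest level of 7 of the 10 genes (Per2, Per3, Nr1d1, Nr1d2, Dbp, Ciart and Cry1) and the lowest level of 2 (Arntl and Clock). NC 1 had the lowest level of 4, Per3, Nr1d1, Nr1d2 and Dbp, and the highest of Per1 and Arntl. HFpEF 1 had the fewest capillary EC UMIs of the 4 libraries. The share of all genes for which a library was highest or lowest was not counted. The counts of extremes are thus no result about the 10 as a list. HFpEF 1 also stood apart in 6 cardiomyocyte markers, whose summed level was 79.1, 56.9, 228.5 and 79.6 CPM in capillary ECs of NC 1, NC 2, HFpEF 1 and HFpEF 2, 51.1, 36.9, 157.2 and 51.2 CPM in artery ECs and 41.2, 24.4, 107.0 and 39.6 CPM in vein ECs, with none of the 6 at 0 in these sums. In mural cells the sums were 58.7, 43.1, 78.5 and 54.7 CPM. The part of these transcripts in the clock genes' values was not tested. Levels are given as CPM, the UMIs of a gene scaled to all UMIs of the class in that library, with exact 95% Poisson intervals that cover counting error only. Only the levels of 1 gene are compared with each other, since 3′ counts are not a measure of amounts between genes.

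**Figure D1:**
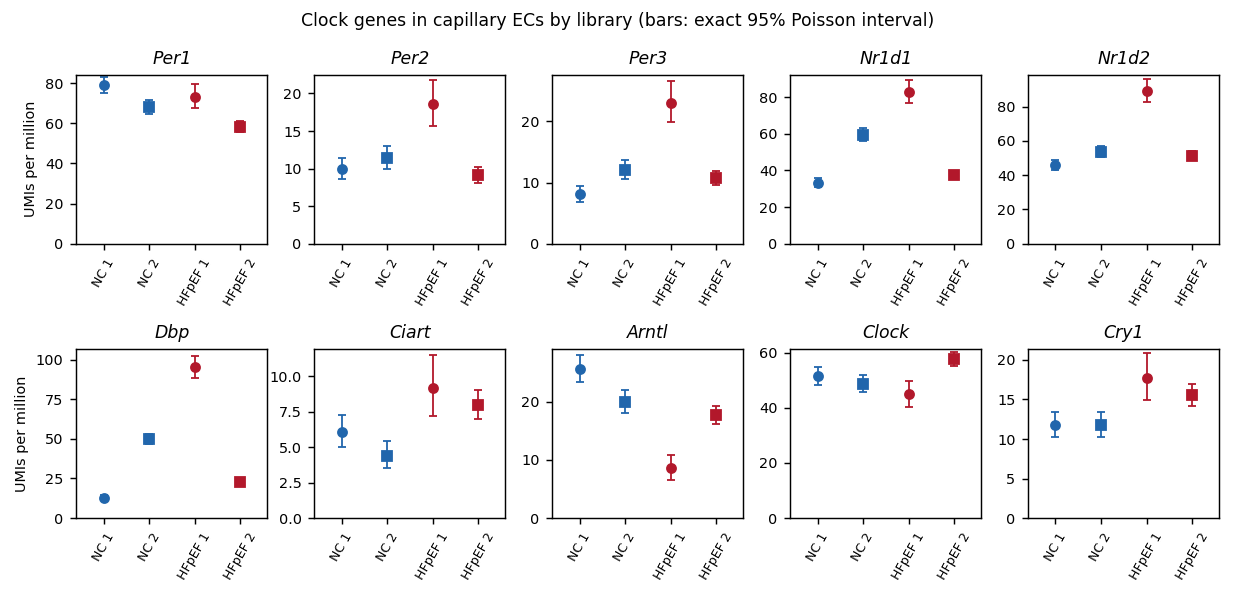
Level of each of the 10 clock genes in capillary ECs (vertical axis, CPM, starting at 0) in NC 1, NC 2, HFpEF 1 and HFpEF 2 (horizontal axis), with exact 95% Poisson intervals as bars. Dbp ranges from 12.9 CPM in NC 1 to 95.3 CPM in HFpEF 1, and Arntl is lowest in HFpEF 1 at 8.54 CPM.

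Dbp, a transcription factor that passes the clock's rhythm on to its target genes, varied most. It lies at chr7:45705088-45710203 on the plus strand, where it overlaps Sphk2 on the other strand. Dbp was counted 246 times in NC 1 (12.9 CPM, 11.3 to 14.6), 973 times in NC 2 (49.8 CPM, 46.7 to 53.0), 759 times in HFpEF 1 (95.3 CPM, 88.6 to 102.3) and 734 times in HFpEF 2 (22.8 CPM, 21.2 to 24.5). The highest library was thus 7.40 times the lowest, and both diets held a low and a high library, so that the diets overlapped. The means were 31.3 ± 26.1 CPM in NC and 59.0 ± 51.3 CPM in HFpEF (SD, n = 2 libraries each).

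The Rev-erb genes, the repressors of Arntl, followed the same order of libraries. Nr1d1 (chr11:98767932-98775333, minus strand, overlapping Thra on the other strand) reached 33.3, 59.6, 82.9 and 37.3 CPM in NC 1, NC 2, HFpEF 1 and HFpEF 2. Nr1d2 reached 45.9, 53.7, 89.3 and 51.4 CPM. For both genes, as for Dbp, NC 1 was lowest, HFpEF 2 and NC 2 followed, and HFpEF 1 was highest. The Period gene Per3 had that order too, with 8.12, 12.1, 23.1 and 10.8 CPM, while it overlaps Camta1 on its own strand, so reads in the shared stretch are uncertain.

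The activators of the loop had other orders of libraries. Arntl (chr7:113207465-113314126, plus strand) was counted 490 times in NC 1 (25.7 CPM, 23.4 to 28.0), 390 times in NC 2 (19.9 CPM, 18.01 to 22.0), 68 times in HFpEF 1 (8.54 CPM, 6.63 to 10.8) and 569 times in HFpEF 2 (17.7 CPM, 16.3 to 19.2). Both HFpEF libraries lay below both NC libraries, though the Poisson intervals of NC 2 and HFpEF 2 overlapped. HFpEF 1 lay far below the other 3. The means of Arntl were 22.8 ± 4.04 CPM in NC and 13.1 ± 6.46 CPM in HFpEF (SD, n = 2 each). Arntl overlaps Gm45355 on the other strand. Its partner Clock spread by no more than 1.29 times, at 51.4 (NC 1), 48.7 (NC 2), 44.8 (HFpEF 1) and 57.7 CPM (HFpEF 2). Clock overlaps Ube2n-ps1 and Gm43658 on its own strand, so reads in the shared stretches are uncertain.

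Among the other repressors, Per1, a core Period gene that also responds to glucocorticoids and cAMP, reached 78.8 CPM in NC 1, 68.0 in NC 2, 73.3 in HFpEF 1 and 58.4 in HFpEF 2. Per2 had 9.95 and 11.5 CPM in NC, 18.6 CPM in HFpEF 1 and 9.10 CPM in HFpEF 2, with only HFpEF 1 apart. Cry1, a core cryptochrome repressor, had 11.8 CPM in both NC libraries and 17.7 and 15.6 CPM in HFpEF, and Ciart reached 6.07 CPM in NC 1, 4.40 in NC 2, 9.16 in HFpEF 1 and 7.95 in HFpEF 2. In these last 2 genes both HFpEF libraries were above both NC libraries. For Ciart, the Poisson intervals of NC 1 (5.02 to 7.28 CPM) and HFpEF 2 (7.01 to 8.99 CPM) overlapped. Ciart rested on 73 to 256 UMIs per library and overlaps C920021L13Rik on the other strand.

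The ratio of Dbp to Arntl UMIs put the spread of libraries into 1 figure per library. In capillary ECs there were 0.50 Dbp UMIs per Arntl UMI in NC 1, 2.49 in NC 2, 11.2 in HFpEF 1 and 1.29 in HFpEF 2. In artery ECs the ratios were 0.61, 3.28, 17.3 and 2.99 in the same order, so that NC 1 was lowest and HFpEF 1 highest in both classes. In vein ECs they were 1.34, 4.56, 13.7 and 1.75. In HFpEF 1 the ratio of 17.3 in artery ECs rested on 9 Arntl UMIs and that of 13.7 in vein ECs on 3. In mural cells, with 2 to 12 Arntl UMIs per library, the ratios were 12, 4.42, 24 and 4.38.

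To set the libraries of a diet against each other, log2 ratios of TMM-scaled CPM with 1 CPM added were computed in capillary ECs over 9203 genes with a mean of at least 5 CPM. NC 2 and NC 1 were 2-fold or more apart in 0.532% of these genes and in 1 of the 10 clock genes, Dbp, at a log2 ratio of 1.87. HFpEF 1 and HFpEF 2 were 2-fold or more apart in 0.717% of genes and in 3 of the 10, Dbp (2.06), Nr1d1 (1.17) and Per3 (1.07). With 0.5 CPM added instead, 4 of the 10 were, since Per2 went from 0.99 to 1.03. The share of all genes at that setting is not given here. With 1 CPM added, the median absolute log2 ratio was 0.29 for the 10 genes against 0.13 for all 9203 between the NC libraries. Between the HFpEF libraries it was 0.88 against 0.13. Ratios as far from 0 as that of Dbp were found in 0.0652% of genes between the NC and 0.0543% between the HFpEF libraries. In both pairs the library with more Dbp was the numerator, so the shared sign of Dbp in the 2 ratios is set by that orientation. These ratios compare libraries, with no replicate, and the hour of collection, the genotype and the library cannot be told apart in them.

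**Figure D2:**
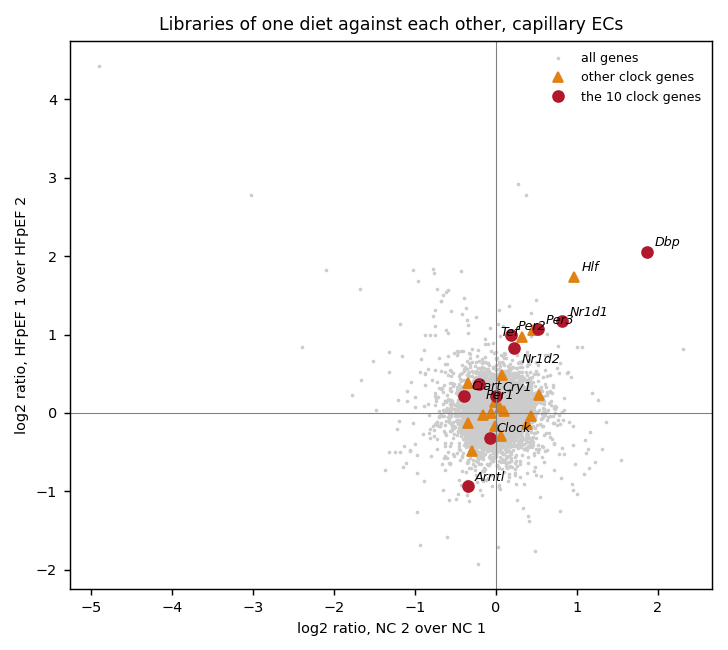
Log2 ratio of NC 2 over NC 1 (horizontal axis) and of HFpEF 1 over HFpEF 2 (vertical axis) in capillary ECs, with 1 point per gene, the 10 clock genes in red, the other clock genes as orange triangles and all genes in grey. Dbp lies at 1.87 and 2.06 and Hlf at 0.97 and 1.73, while Arntl lies below 0 on both axes. On both axes the library with more Dbp is the numerator, which sets the shared sign of Dbp.

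HFpEF was then compared with NC in each class by edgeR's quasi-likelihood test on the summed counts, and a gene with a Benjamini-Hochberg adjusted p under 0.05 over all genes tested was called. In capillary ECs none of the 10 clock genes was called, beside 0.0162% of the 12345 genes tested (2 genes). At an unadjusted p under 0.05 there were 3 of the 10, beside 17.4% of all genes. DESeq2 also called 0, with 5 at an unadjusted p under 0.05 and no adjusted p for 5. The share of all genes at that p by DESeq2 is not given here for any class. Its counts are thus no result about the 10 as a list. The log2 fold change was positive for 8 genes and negative for 2, with a median of 0.41 against 0.00 for all genes.

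The 3 genes at an unadjusted p under 0.05 were those whose libraries did not overlap. Cry1 had a log2 fold change of 0.49 ± 0.14 (SE; edgeR adjusted p = 0.18), Ciart one of 0.69 ± 0.22 (adjusted p = 0.20) and Arntl one of -0.71 ± 0.28 (adjusted p = 0.26). For Dbp the change of 0.86 had an SE of 0.75 (edgeR adjusted p = 0.585), for Per3 it was 0.67 ± 0.37, for Nr1d2 0.48 ± 0.25, for Nr1d1 0.34 ± 0.40 and for Per2 0.29 ± 0.32. Per1 stood at -0.16 ± 0.15 and Clock at 0.05 ± 0.13.

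The sign of Dbp depended on HFpEF 1. Without HFpEF 1 the log2 fold change of Dbp was -0.48, that of Nr1d1 -0.34 and that of Per2 -0.25. Without HFpEF 2, HFpEF 1 was the only HFpEF library, with its spread assumed equal to that of NC. The log2 fold change was then 1.21 for Per3, 0.87 for Nr1d2 and -1.39 for Arntl. Without the filter on low counts 5 were called, Per3, Nr1d2, Dbp, Ciart and Arntl, but so were 1052 genes in all.

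**Figure D3:**
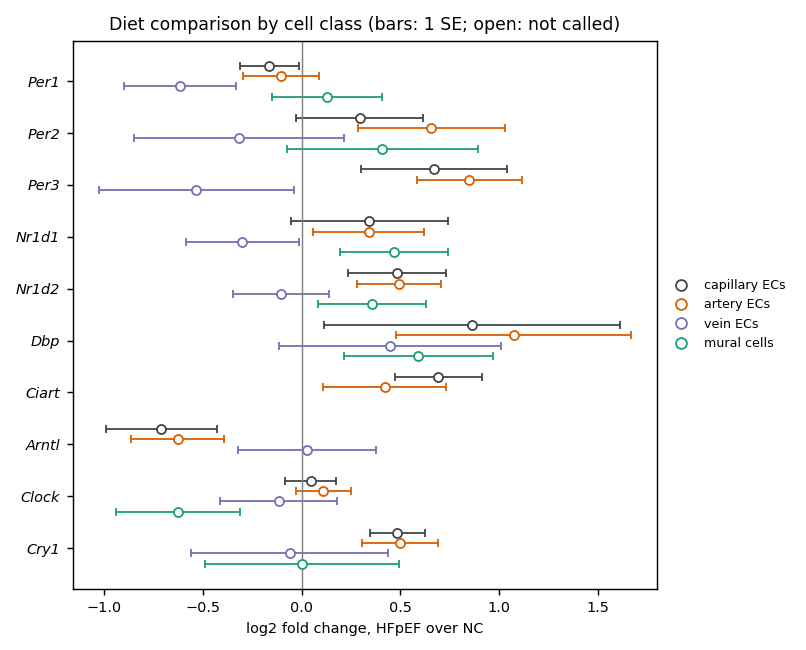
Log2 fold change of HFpEF over NC (horizontal axis) for the 10 clock genes in the 4 classes (colours), with bars of 1 SE and open points for genes that were not called. No point is filled, and the bar of Dbp in capillary ECs spans 0.75 to either side of 0.86.

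In artery ECs 0 of the 10 genes were called by edgeR, beside 0.207% of 11115 genes, with 4 at an unadjusted p under 0.05, and DESeq2 called 0 (2 unadjusted, no adjusted p for 5). The 4 were Per3 (log2 fold change 0.85 ± 0.27 SE), Cry1 (0.50 ± 0.19), Nr1d2 (0.49 ± 0.21) and Arntl (-0.63 ± 0.23), with edgeR adjusted p between 0.25 and 0.37. Of all genes tested in artery ECs, 13.0% had an unadjusted p under 0.05 by edgeR. In their point levels, the libraries of the diets did not overlap for 6 of the 10, these 4 with Per2 and Ciart. The share of all genes without such overlap was not counted, so the 6 are no result about the 10 as a list. In each of the 6, Poisson intervals of an NC and an HFpEF library overlapped. For Nr1d2 these were NC 2 (63.3 CPM, 57.2 to 70.0) and HFpEF 2 (64.7 CPM, 59.2 to 70.5). For Per2 they were NC 1 (8.75 CPM, 6.59 to 11.4) and HFpEF 2 (9.10 CPM, 7.12 to 11.5). Arntl was at 22.6, 18.8, 7.77 and 15.0 CPM in NC 1, NC 2, HFpEF 1 and HFpEF 2, where 7.77 CPM rested on 9 UMIs. Dbp was at 13.7, 61.5, 134.7 and 45.0 CPM in NC 1, NC 2, HFpEF 1 and HFpEF 2, with a log2 fold change of 1.07 ± 0.59 (edgeR adjusted p = 0.48). Without NC 2 the log2 fold change of Dbp was 2.48.

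In vein ECs 0 of the 9 clock genes tested were called, beside 0.197% of 9124 genes, and none had an unadjusted p under 0.05 by edgeR or DESeq2, which gave no adjusted p for 9 of 10. Of all genes tested in vein ECs, 10.6% had an unadjusted p under 0.05 by edgeR. Ciart was too low for the test, with 3 to 7 UMIs per library. Dbp reached 36.2, 79.1, 190.7 and 43.0 CPM in the order used above, again with HFpEF 1 highest and NC 1 lowest, and a log2 fold change of 0.45 ± 0.56. HFpEF 1 held 82 vein ECs, and its 190.7 CPM came from 41 UMIs. Without HFpEF 2 the log2 fold change of Dbp in vein ECs was 1.77, and without HFpEF 1 it was -0.46.

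In mural cells 0 of the 7 clock genes tested were called, beside 0.0149% of 6689 genes, and none had an unadjusted p under 0.05 by edgeR or DESeq2. Of all genes tested in mural cells, 6.83% had an unadjusted p under 0.05 by edgeR. Per3, Ciart and Arntl were too low for the test. Dbp was at 61.3, 73.8, 179.4 and 56.3 CPM, with a log2 fold change of 0.59 ± 0.38, and Clock at 58.7, 66.8, 41.1 and 40.2 CPM in that order of libraries, with -0.63 ± 0.31 (edgeR adjusted p = 0.73). Without HFpEF 2 the log2 fold change of Dbp was 1.39, and without HFpEF 1 it was -0.28.

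Whether the diet's change differed between classes was tested as an interaction with library as a block. None of the 10 genes was called for artery against capillary ECs (0.0767% of 11733 genes called), vein against capillary ECs (0.5% of 11395) or mural cells against capillary ECs (0.387% of 11884), by edgeR or by DESeq2. With edgeR 1, 0 and 1 of the 10 had an unadjusted p under 0.05, beside 4.85%, 6.12% and 5.71% of all genes. With DESeq2 1, 0 and 0 did, for which the share of all genes is not given here. These counts are no result about the 10 as a list. The 2 genes by edgeR were Dbp and Clock. The change of Dbp was larger by 0.53 ± 0.15 in artery than in capillary ECs (edgeR adjusted p = 0.50). That of Clock was lower by a log2 difference of -0.74 ± 0.33 in mural cells (edgeR adjusted p = 0.75).

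Lists of genes that respond to stress, hormone or handling were set beside the clock genes in the same diet comparison, and their part in the clock genes' values was not tested. The 8 heat shock genes summed to 10388 and 6871 CPM in capillary ECs of NC 1 and NC 2 and to 17122 and 19593 in HFpEF 1 and HFpEF 2, with a median log2 fold change of 1.07. In capillary ECs edgeR called 0 of them (7 at an unadjusted p under 0.05) and DESeq2 called 6, and edgeR called 3 in artery ECs, 2 in vein ECs and 1 in mural cells. Of 8 glucocorticoid-induced genes edgeR called 0 in any class. It had 5, 4, 3 and 3 at an unadjusted p under 0.05 in capillary, artery and vein ECs and mural cells. The shares of all genes at that p were 17.4%, 13.0%, 10.6% and 6.83% in these classes. DESeq2 called 1, 0, 0 and 0 of the glucocorticoid-induced list. In capillary ECs that list summed to 2998, 2480, 2664 and 2445 CPM in NC 1, NC 2, HFpEF 1 and HFpEF 2. Its members did not share a direction, since both HFpEF libraries lay below both NC libraries for 4 (Fkbp5, Zbtb16, Klf9 and Ddit4) and above them for 2 (Sgk1 and Pdk4), and the diets overlapped for Tsc22d3 and Errfi1. The share of all genes without such overlap was not counted, so these counts are no result about that list. The 12 immediate early genes, which respond within minutes to handling and dissociation, summed to 24568, 23452, 25235 and 22918 CPM, which set neither a diet nor a library apart. Of these, edgeR and DESeq2 called 0 in any class, each with 0, 1, 0 and 1 at an unadjusted p under 0.05. The depth per cell also differed between the diets. Thinning each cell to 1000 UMIs left out 6957 cells too shallow for it, 5214 of them in HFpEF 2. No clock gene was called in any of the 4 classes before or after thinning, so these counts do not show whether depth shaped the values.

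Between classes of the same library, Dbp and Nr1d1 were lowest in capillary ECs. Classes were compared with library as a block, which sets each library's classes against each other. Dbp was higher than in capillary ECs in 4 of 4 libraries in artery ECs (log2 fold change 0.47 ± 0.10 SE; edgeR adjusted p = 0.00089), in vein ECs (0.88 ± 0.13; adjusted p = 3.5e-06) and in mural cells (0.93 ± 0.19; adjusted p = 0.0002). Nr1d1 was also higher in 4 of 4 libraries, by 0.28 ± 0.06 in artery ECs (edgeR adjusted p = 0.0020), 0.35 ± 0.13 in vein ECs (adjusted p = 0.042) and 0.86 ± 0.16 in mural cells (adjusted p = 0.0001).

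**Figure D4:**
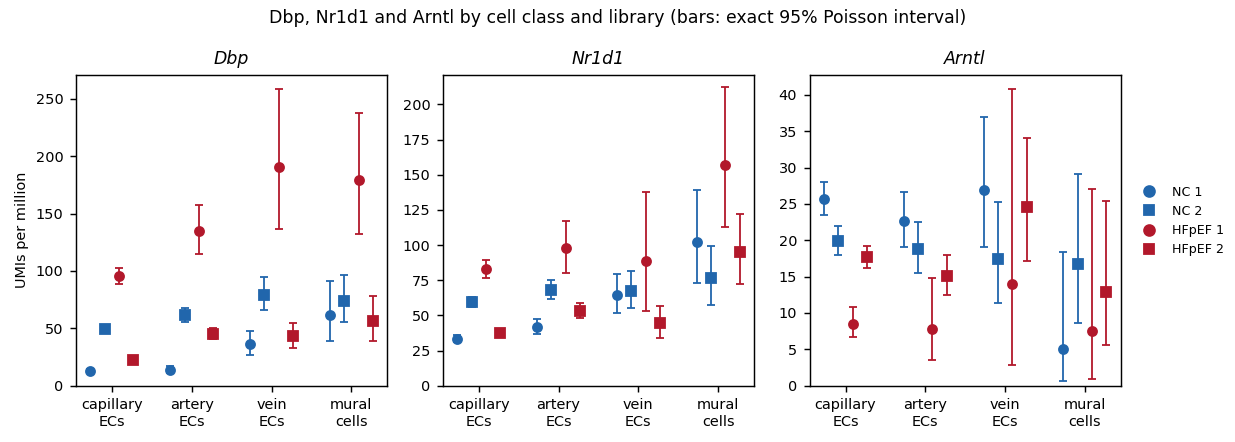
Levels of Dbp, Nr1d1 and Arntl (vertical axes, CPM, starting at 0) in the 4 classes (horizontal axis) and 4 libraries (NC in blue, HFpEF in red, circles for library 1 and squares for library 2), with exact 95% Poisson intervals. HFpEF 1 is highest for Dbp and Nr1d1 in every class shown, and the intervals of Arntl widen in vein ECs and mural cells.

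Over the 4 libraries, the mean level of Dbp ran from 45.2 ± 36.9 CPM (SD, n = 4) in capillary ECs to 63.7 ± 51.3 in artery ECs, 87.2 ± 71.5 in vein ECs and 92.7 ± 58.3 in mural cells, and each neighbour in this order lay within the spread of the libraries. Nr1d1 had means of 53.3 ± 22.9, 65.2 ± 24.1, 66.2 ± 18.02 and 107.6 ± 34.6 CPM in the same order, in which only mural cells lay further from their neighbour than the SD. Arntl had 10.5 ± 5.2 CPM in mural cells, 16.04 ± 6.3 in artery ECs, 17.95 ± 7.1 in capillary ECs and 20.7 ± 6.1 in vein ECs. Its gap between mural cells and artery ECs exceeded the SD of mural cells but not that of artery ECs. The other neighbours lay within the spread. These SDs hold the differences between libraries that the classes share. The tests against capillary ECs, with library as a block, set those differences aside, and by them Dbp and Nr1d1 were higher in each of the other classes. Artery, vein and mural classes were not compared with each other by a test.

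Of the 10 clock genes, 5 were called in artery against capillary ECs, all higher, beside 31.2% of 11310 genes. They were Dbp, Nr1d1, Per1 (0.18 ± 0.05), Clock (0.21 ± 0.05) and Cry1 (0.27 ± 0.10), the last 3 with edgeR adjusted p of 0.013, 0.0054 and 0.043. In vein ECs 2 were called, Dbp and Nr1d1, beside 24.6% of 10770 genes, and in mural cells 4, beside 41.5% of 11094 genes. Beyond Dbp and Nr1d1, mural cells had Per2 higher, by 0.78 ± 0.26 (edgeR adjusted p = 0.020; 9 to 13 UMIs per library), and Arntl lower, by -0.81 ± 0.31 (adjusted p = 0.036; 2 to 12 UMIs per library). Against the shares of all genes, those of the 10 were larger in artery ECs and similar or smaller in vein ECs and mural cells, and they are no result about the 10 as a list.

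**Figure D5:**
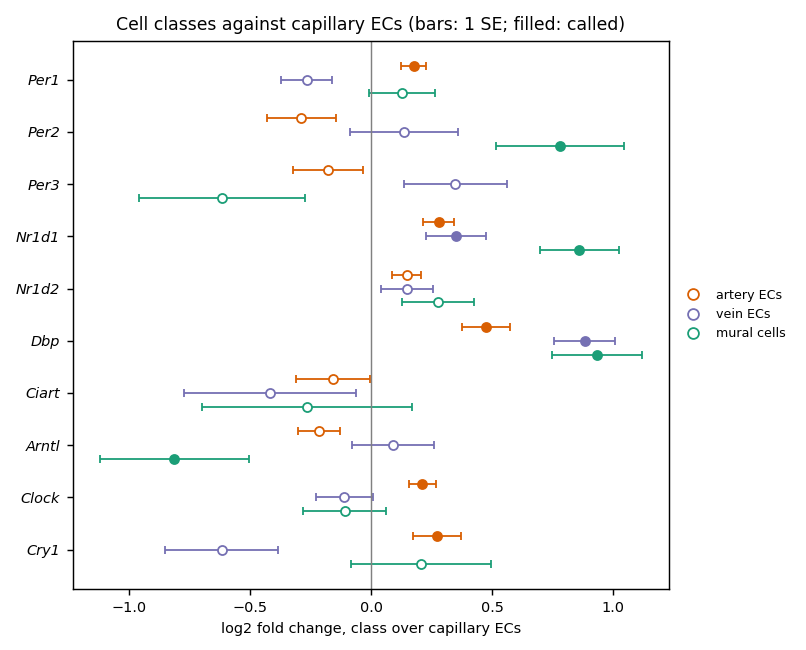
Log2 fold change of artery ECs, vein ECs and mural cells over capillary ECs (horizontal axis) for the 10 clock genes, with bars of 1 SE, filled points for called genes and open points for the others. Dbp and Nr1d1 are filled and above 0 in all 3 classes.

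DESeq2 called 2 of the 10 in artery ECs (Dbp, Nr1d1), 1 in vein ECs (Dbp) and 2 in mural cells (Dbp, Nr1d1). The shares of all genes that DESeq2 called between classes are not given here, so these counts are no result about the 10 as a list. After thinning to 1000 UMIs, which also moved cells between classes, 1, 1 and 2 were called. Dbp was called in each of the 3 classes under all 13 alternatives, with log2 fold changes of 0.26 to 0.90 in artery ECs, 0.34 to 1.32 in vein ECs and 0.73 to 1.19 in mural cells. The call of Nr1d1 held in all 13 in mural cells, in 12 in artery ECs and in 9 in vein ECs. Without NC 1, Per2 and Arntl lost their calls in mural cells (0.67 and -0.47), as they did without HFpEF 2 (0.65 and -0.93), and Nr1d1 lost its call in vein ECs (0.12), whereas Per1 gained one there (-0.40, adjusted p = 0.024). Without NC 2, Cry1 gained a call in vein ECs, at -0.86 (adjusted p = 0.037).

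Of 23 further clock genes, 20 were tested between the diets in capillary ECs, 20 in artery ECs, 17 in vein ECs and 16 in mural cells. By edgeR 0 were called, with 3, 4, 0 and 4 at an unadjusted p under 0.05. The shares of all genes at that p by edgeR were 17.4%, 13.0%, 10.6% and 6.83%. DESeq2 called 0 as well, with 2, 3, 0 and 3 at an unadjusted p under 0.05 and no adjusted p for 10, 15, 17 and 0. These counts are not read as a result about the further clock genes as a list. The median log2 fold change of the 20 in capillary ECs was 0.12. The 4 with the largest changes there were Bhlhe41 (1.48 ± 0.62 SE), Hlf (1.35 ± 0.62), Tef (0.53 ± 0.33) and Bhlhe40 (0.46 ± 0.13). Hlf and Tef encode the closest relatives of DBP, which bind the same D-boxes, and Bhlhe40 and Bhlhe41 encode DEC1 and DEC2, repressors that compete at E-boxes.

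In capillary ECs, Hlf stood at 3.56, 7.93, 24.6 and 6.90 CPM and Tef at 22.0, 30.8, 53.1 and 25.8 CPM in NC 1, NC 2, HFpEF 1 and HFpEF 2. Both had NC 1 lowest and HFpEF 1 highest, as Dbp did. Between HFpEF 1 and HFpEF 2, 2 of 17 further clock genes were 2-fold or more apart, Hlf (log2 ratio 1.73) and Tef (1.06), and between NC 2 and NC 1 none was, with 0.97 for Hlf. The median absolute log2 ratio of the 17 was 0.29 between the NC libraries and 0.16 between the HFpEF libraries. With 0.5 CPM added in place of 1, Hlf stood at 1.05 between the NC libraries and Cry2 at 1.01 between the HFpEF libraries.

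Over the 16 sums of 4 libraries and 4 classes, the 5 genes most like Dbp among 8241 with a mean of at least 10 CPM were Tef (Pearson r = 0.92), Nr1d1 (0.87), Nr1d2 (0.85), Ranbp2 (0.82) and Opa1 (0.81). Among those most like Arntl were Afg3l1 (0.82), Pura (0.81), Sdf4 (0.80) and Eid2 (0.79). The sums of a library share its depth and cells of a kind, so these are descriptions.

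Between classes, 9 of 20 further clock genes tested were called in artery against capillary ECs, beside 31.2% of all genes. In vein against capillary ECs 5 of 18 were called, beside 24.6%, and in mural against capillary ECs 9 of 20, beside 41.5%. These counts are no result about the further clock genes as a list. In artery ECs 7 were higher, Bhlhe41 (2.10 ± 0.17), Usp2, Hlf, Nfil3, Bhlhe40, Tef and Nampt, and 2 lower, Timeless and Fbxl21. In vein ECs Bhlhe40 (1.26 ± 0.08; edgeR adjusted p = 2.9e-12), Hlf (1.17 ± 0.24), Wee1 and Tef (0.66 ± 0.13) were higher and Csnk1e lower. Bhlhe40 stood at 380.4, 214.7, 428.0 and 349.3 CPM in vein ECs of the 4 libraries, against 125.2, 98.5, 145.2 and 162.8 CPM in capillary ECs, with no overlap between the classes.

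The largest class difference among these genes was Usp2, a deubiquitinase driven by the clock, in mural cells. It was at 130.2, 80.7, 74.8 and 56.3 CPM in mural cells of NC 1, NC 2, HFpEF 1 and HFpEF 2 and at 1.05, 0.77, 0.88 and 1.40 CPM in capillary ECs, a log2 fold change of 6.11 ± 0.29 (edgeR adjusted p = 4.9e-15). Npas2, a paralogue of Clock, had 2, 5, 1 and 4 UMIs in mural cells (3.74 to 6.96 CPM) and 9, 4, 0 and 12 UMIs in capillary ECs (0 to 0.47 CPM). Hlf (2.55 ± 0.24), Bhlhe41 (2.08 ± 0.42), the cryptochrome Cry2 (1.95 ± 0.20) and Rora (1.19 ± 0.15), the activator that opposes Rev-erb at ROR elements, were higher in mural cells as well. Bhlhe40 and Timeless were lower there, Bhlhe40 by a log2 fold change of -0.77 ± 0.13.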

How the data were processed

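RFP-positive left ventricular cells of 4 libraries were profiled with 10x Genomics 3′ V3 chemistry. The deposited values are UMI counts per gene and cell, which the authors made with fastp and CellRanger 5.0.1 on mm10 (Ensembl 100), with downsampling of mapped reads between samples, and only cells with more than 200 genes and less than 20% mitochondrial UMIs, the study's own limits, were kept. Whether counting used strand is not given in the sources used here. Cells were gated by detected markers: at least 2 pan-endothelial or 3 mural markers, then at least 2 of an EC class. Cells of mixed lineage (1500) were left out and doublets were not called otherwise.

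Counts summed per library and class were tested with edgeR 4.0.16 (quasi-likelihood, TMM, filterByExpr) in R 4.3.3, and with DESeq2 1.42.0. Python 3.11.15, numpy 2.4.6, scipy 1.17.1, pandas 2.3.3 and matplotlib 3.10.9 were used otherwise. The steps were checked on simulated counts. Classes held 214977 to 32193712 UMIs per library. A count of 0 allows up to 3 UMIs, or 0.0932 to 13.96 CPM. Positions come from GENCODE for GRCm38, which held 99.5% of the gene identifiers. The 10 genes, the lists and the rule for naming others (the 10, further clock genes called or among the 4 largest changes in capillary ECs, and the 5 most like Dbp and Arntl) were chosen with earlier results of these data known. Some genes these rules name are not reported here. Alternatives changed the normalization, tool, filters, gate, depth and block and left out each library.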

Additional observations from a re-analysis of the deposited data

How the results depend on the processing

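Counts of called clock genes between the diets were 0 in the 4 classes and stayed at 0 under the alternatives except these. Without the low-count filter 5 were called in capillary ECs, and 1 for the interaction in artery ECs. The library numbers are not known to pair the libraries. The r between NC 1 minus NC 2 and HFpEF 1 minus HFpEF 2 was 0.007 over 12345 genes. An r over all genes cannot decide on a pairing by genotype, which was not tested. Scarb1 in capillary ECs stood at 113.7 CPM in NC 1 and 114.5 in HFpEF 1, against 49.6 in NC 2 and 53.0 in HFpEF 2. With the replicate block 1 clock gene was called in artery ECs (Dbp, 1.14, edgeR adjusted p = 0.023) and 0 in the other classes, and 72, 205, 8 and 0 genes were called in capillary, artery and vein ECs and mural cells, against 2, 23, 18 and 1. Leaving out a library could also move the count from 0 in each class. Such fits held 1 library of a diet, and their calls are not given.

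Between classes, 5, 2 and 4 clock genes were called in artery, vein and mural against capillary ECs. DESeq2 gave 2, 1 and 2, thinning to 1000 UMIs 1, 1 and 2, RLE normalization 4 in vein ECs, no low-count filter 4 in vein ECs, and the gate at 1 marker 2 in mural cells. Leaving out each library gave 4 to 5, 2 to 3 and 2 to 4. Log2 fold changes that turned their sign were, after thinning, those of Nr1d2 between the diets in artery ECs (-0.12), of Per1 and Cry1 in artery against capillary ECs (-0.066 and -0.060) and of Arntl in vein against capillary ECs (-0.36, and -0.070 without the deepest cells). Arntl between the diets in vein ECs, at 0.03 as reported, stood at -0.10 with DESeq2, -0.27 with 1 marker, -0.034 with 3 markers and -0.78 without the deepest cells. Leaving out each library moved the diet's log2 fold change in capillary ECs from -0.35 to 0.021 for Per1, -0.25 to 0.82 for Per2, -0.34 to 0.86 for Nr1d1, -0.48 to 2.14 for Dbp and -0.14 to 0.18 for Clock. It moved Dbp from -0.46 to 1.77 in vein ECs and -0.28 to 1.39 in mural cells, and Arntl from -0.60 to 0.35 in vein ECs and, against capillary ECs, from -0.067 to 0.24. The cause was not tested.

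The number of all genes called between the diets ran from 1 to 1052 in capillary ECs, 0 to 205 in artery ECs, 8 to 206 in vein ECs and 0 to 29 in mural cells over the alternatives, and for the interactions from 0 to 41, 1 to 66 and 0 to 53. Against capillary ECs it ran from 1700 to 3873, 1027 to 3167 and 2910 to 5240. DESeq2 called 234 genes in capillary ECs. TMM-scaled CPM moved no level of a clock gene by more than 1 SD between libraries, and removing hemoglobin-rich cells turned no direction and no call.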
